A study of Mus musculus with 6 samples.

Results

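Vesicle fusion genes were examined in RNA sequencing of hand-picked pancreatic islets, the small endocrine organs of the pancreas, from pregnant and nonpregnant mice. A gene was a member if its symbol named a syntaxin, a SNAP-25 homolog, a VAMP, a syntaxin-binding protein, a synaptotagmin, a synaptotagmin-like protein, a Rab3 or Rab27 protein or a Rab3 regulator, a RIM, a Munc13 (Unc13) or a complexin. This rule used symbols alone and found 77 of 19940 genes, of which 75 reached 10 mean reads averaged over the groups. Both groups were C57BL6/J mice: 3 pregnant samples at gestational day 14.5, and 3 nonpregnant samples from mice that the labels call littermates. The series' design text speaks of 5 animals per group, and neither the ages of the mice nor whether a sample is 1 animal is given in the sources used here. Each gene has 1 authors' mean per group, so the spread between the 3 samples cannot be shown, and every p-value below is the authors' own. The authors' means summed to 87654449 reads in the pregnant and 84493872 reads in the nonpregnant group.

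Beta cells release insulin by calcium-triggered exocytosis, with a machinery largely shared with nerve terminals. A SNARE on the granule (a VAMP) zips together with SNAREs on the plasma membrane (a syntaxin and a SNAP-25 homolog), and the resulting bundle pulls the membranes into fusion. Rab3 and Rab27 with their effectors bring granules to the membrane, syntaxin-binding, Munc13 and RIM proteins prepare the SNAREs, and synaptotagmins and complexins tie fusion to calcium. The demand for insulin is high in pregnancy, and the comparison asks which of these transcripts differ in islets at that time.

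Most members showed small differences, while single members of several families rose or fell. By the authors' deposited table, 9 of the 77 members had an adjusted p under 0.05, with 4 higher and 5 lower in pregnant islets. The higher members were Rab3d, Rims3, Sytl1 and Syt10, and the lower ones were Unc13a, Syt2, Sytl2, Sytl5 and Cplx3. None of the 34 syntaxin, SNAP-25 homolog, VAMP and syntaxin-binding genes was among them, although 4 of these had an unadjusted p under 0.05. These 34 join SNAREs with proteins that prepare them, and whether they differ from the other members was not tested. The share of members called was 11.7%, and it was 11.7% over all genes, with 7.57% of all genes higher and 4.15% lower. Among genes with at least 10 mean reads, 12% of members and 14.8% of all genes were called. An unadjusted p under 0.05 was reached by 18 members (23.4%) and by 22.2% of all genes. The members as a set were called about as often as genes of the table at large. Their median log2 ratio was 0.00, with a middle range from -0.18 to 0.15, beside a median of -0.01 and a range from -0.20 to 0.19 over all 15682 genes with at least 10 mean reads. Of the 75 members with that many reads, 52 lay within 1.2-fold in either direction.

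**Figure D1:**
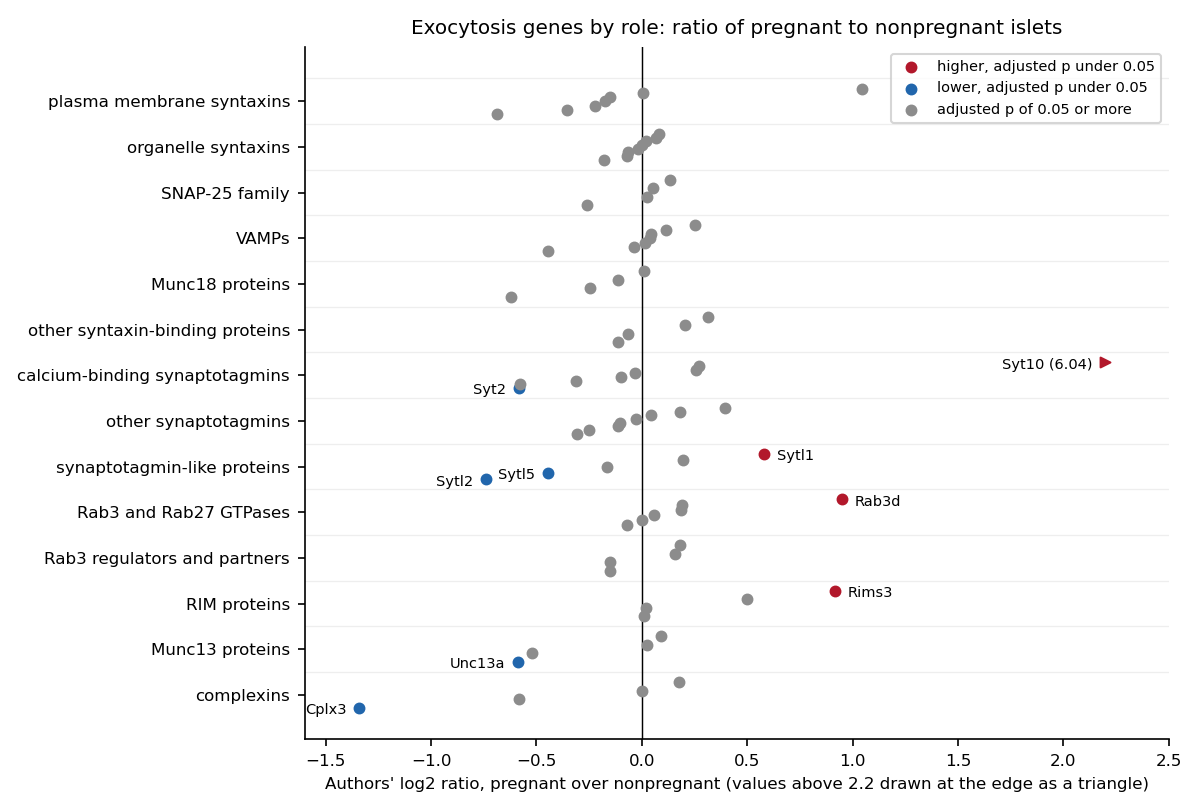
The authors' log2 ratio of pregnant over nonpregnant islets (x axis) for each of the 77 members, 1 point per gene, in rows by role. Red and blue points had an adjusted p under 0.05: Rab3d, Rims3, Sytl1 and Syt10 lie to the right, Unc13a, Syt2, Sytl2, Sytl5 and Cplx3 to the left, and Syt10, at 6.04, is drawn at the edge.

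Levels between genes are compared here as RPKM computed from the authors' means, that is mean reads scaled by annotated exon length and by the summed mean reads of the group. This value is called the level below. The exon length joins all annotated exons of a gene, so an order by level can differ from an order by reads. By this measure the most abundant member was Syt13, a synaptotagmin whose C2 domains do not bind calcium, with a level of 338 in nonpregnant and 296 in pregnant islets. Cplx2, a complexin that clamps and then promotes SNARE zippering, followed with levels of 121 and 129, and Sytl4, the granule-bound Rab27 effector granuphilin, with 103 and 86. Rab27a, Vamp2, Rab3d, Syt4, Syt7 and Rab3a were also among the 10 members with the highest level. The level of Syt13 exceeded that of 99.6% of genes with at least 10 mean reads, and that of Rab3a, the last of these 10, exceeded 95.5%. Of these 10, only Rab3d had an adjusted p under 0.05 by the authors' deposited table. Neighbours in this order, such as Rab27a (51.6 and 55.3) and Vamp2 (52.8 and 53.8), changed places between the groups, and without a spread their order cannot be told apart.

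**Figure D2:**
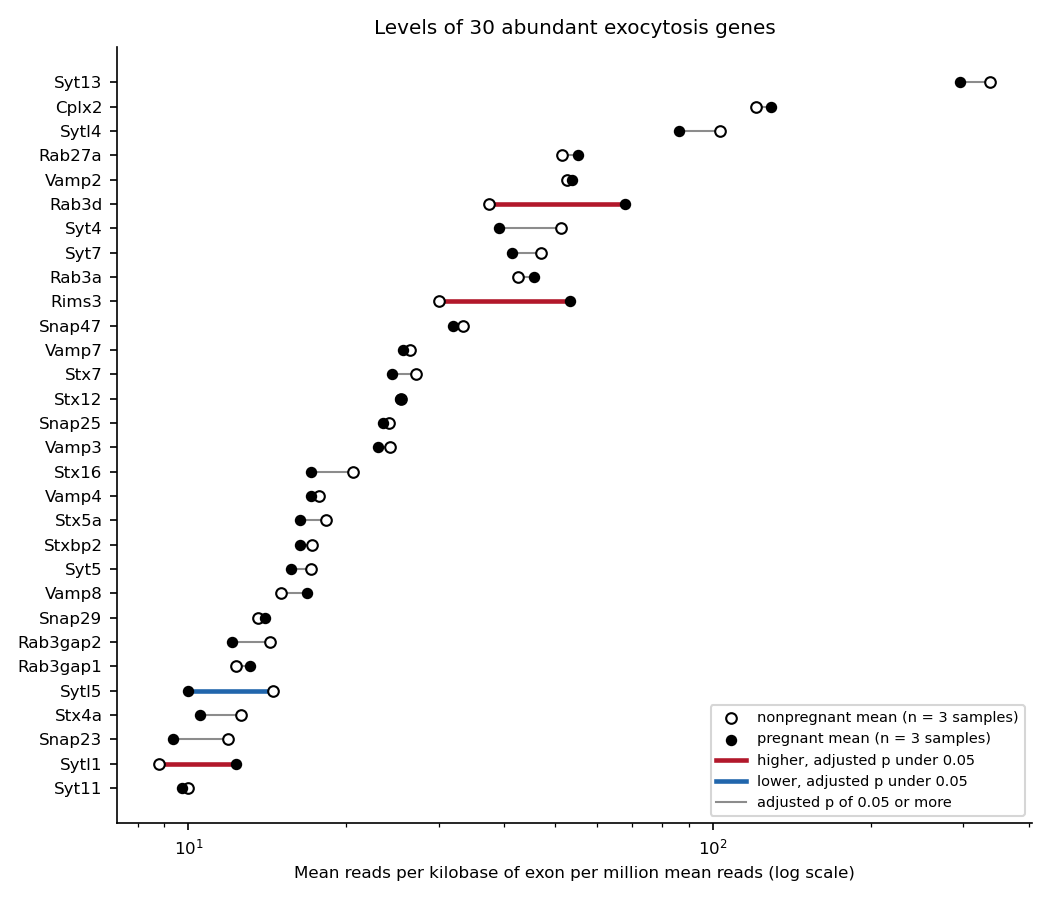
Levels of 30 abundant members, with the nonpregnant mean as an open circle and the pregnant mean as a filled circle on a log axis of level (RPKM from the group means). The coloured bars mark Rab3d and Rims3, which rose from 37.4 to 67.9 and from 30.1 to 53.5, Sytl1, which rose from 8.77 to 12.3, and Sytl5, which fell from 14.5 to 10.

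The plasma membrane syntaxins, which anchor the fusion reaction, held 0 higher and 0 lower members of 7. Among all genes with at least 10 mean reads 14.8% were called, and no count of a group here or below was tested. Their median log2 ratio was -0.17 by the authors' deposited table, and their summed level was 30.6 in nonpregnant and 26.4 in pregnant islets. Stx1a, the syntaxin of fast insulin release, had an authors' mean of 1213 reads in nonpregnant and 1015 reads in pregnant islets. This is a ratio of 0.86 by the authors' deposited table (adjusted p = 0.295), a difference that did not pass. Stx4a, the gene of syntaxin 4 and the highest of this group by level though not by reads, went from an authors' mean of 2520 to 2178 reads. Its ratio was 0.89 by the authors' deposited table (adjusted p = 0.39). Stx3, also used in granule-to-granule fusion, stood at 4266 and 4172 reads, a ratio of 1 by the authors' deposited table. Stx11 and Stx19 had authors' means of at most 44 reads, so their ratios of 2.06 and 0.62 by the authors' deposited table rest on few reads. The 8 syntaxins of the Golgi, endosomes and other organelles (Stx5a, Stx6, Stx7, Stx8, Stx12, Stx16, Stx17 and Stx18) lay between ratios of 0.88 and 1.06 by the authors' deposited table, and 0 of them passed. Stx7 and Stx12, of endosomes, had the highest levels of these, at 27.2 and 25.4 in nonpregnant islets.

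Snap25, the partner of syntaxin 1A in regulated release, had an authors' mean of 13827 reads in nonpregnant and 13997 reads in pregnant islets. Its ratio was 1.04 by the authors' deposited table (adjusted p = 0.907). Snap23, the homolog found in most cells, went from an authors' mean of 4320 to 3517 reads, a ratio of 0.83 by the authors' deposited table with an unadjusted p of 0.0152 and an adjusted p of 0.0995. Snap47 had the highest level of the family, 33.4 and 32, ahead of Snap25 at 24.1 and 23.5. This order rests on annotated exon lengths of 2651 bases for Snap47 and 6791 for Snap25. In reads the order was reversed, with authors' means of 7478 and 7432 for Snap47. Exons of opposite-strand genes cover over 10% of the exon length in 5 members, Snap47, Stx18, Rab3gap2, Syt4 and Syt12, so part of their reads is uncertain if counting ignored strand; none of these 5 was called. Among the VAMPs, the granule SNARE gene Vamp2 had the highest level and authors' means of 16999 and 17968 reads, with a ratio of 1.08 by the authors' deposited table (adjusted p = 0.614). Vamp3, or cellubrevin, was at 1.01 and the endolysosomal Vamp7 at 1.03 by the authors' deposited table, with levels of 24.2 and 23 for Vamp3 and 26.4 and 25.7 for Vamp7. Vamp8, a SNARE of granule fusion in exocrine cells that beta cells also carry, went from an authors' mean of 2933 to 3413 reads. That ratio of 1.19 had an unadjusted p of 0.0204 and an adjusted p of 0.122 by the authors' deposited table. Of 4 SNAP-25 homologs and 7 VAMPs, 0 were therefore called in either direction, beside 14.8% of all genes with at least 10 mean reads.

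The syntaxin-binding proteins hold syntaxins or their complexes and steer SNARE assembly. Stxbp2 stood at 6047 and 5949 reads, and Stxbp3a, the gene of Munc18c, at 3674 and 3318 reads, with ratios of 1.01 and 0.93 by the authors' deposited table. Stxbp3b, annotated as the pseudogene Stxbp3-ps, had authors' means of 13 and 8 reads. Stxbp6, or amisyn, which binds syntaxin in place of a VAMP, went from 3921 to 4761 reads, a ratio of 1.24 by the authors' deposited table (unadjusted p = 0.0297, adjusted p = 0.159). The tomosyn genes Stxbp5 and Stxbp5l, inhibitors of SNARE assembly, were at 0.92 and 1.15 by the authors' deposited table without passing.

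The largest rise among abundant members was that of Rab3d, a small GTPase on secretory granules. The gene (ENSMUSG00000019066) spans 21907491 to 21918192 on chromosome 9 of GRCm38 (minus strand). The authors' mean was 13243 reads without and 24990 reads with pregnancy, a ratio of 1.94 by the authors' deposited table (adjusted p = 3.40e-18). The paralogs Rab3a, Rab3b and Rab3c, whose products act at the same step, were at 1.14, 1 and 0.95 by the authors' deposited table, and none of them passed (adjusted p = 0.294, 1 and 0.903). Rab27a, the Rab that recruits granuphilin, had authors' means of 16907 and 18810 reads (ratio 1.14 by the authors' deposited table, adjusted p = 0.264). Rab27b stood at 173 and 176 reads. Rab3d accounted for 26.2% of the summed level of these 6 GTPase genes in nonpregnant and 38% in pregnant islets, while Rab27a went from 36.2% to 30.9% and Rab3a from 29.9% to 25.4%. Rab3d thus stood below Rab27a and Rab3a in level in nonpregnant islets and above both in pregnant islets. The order against Rab3a rests on annotated exon lengths of 4196 bases for Rab3d and 2226 for Rab3a. In reads, Rab3d stood above Rab3a in nonpregnant (13243 against 7998) and in pregnant islets (24990 against 8869). The 4 genes of Rab3 regulators and partners, including both subunits of the Rab3 GTPase-activating complex (Rab3gap1 and Rab3gap2), lay between ratios of 0.9 and 1.13 by the authors' deposited table, and 0 passed.

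Rab3d is also known from the zymogen granules of acinar cells, the enzyme-secreting cells around the islets. All but 1 of the 23 acinar marker genes measured were higher in the pregnant group by the authors' deposited table, and 0 were lower; the exception was Bhlha15, at 0.91. The summed level of these 23 genes was 929 in nonpregnant and 12608 in pregnant islets, and their share of mean reads 0.133% and 1.68%. None of them was listed at 0 in either group. The smallest adjusted p among them by the authors' deposited table was 0.00383, for Try4, at a ratio of 18.8. Sytl1, whose product Slp1 is also known from zymogen granules, was higher as well, at 1.5 by the authors' deposited table (adjusted p = 0.00998). Further members known from acinar granule release stood at 1.19 (Vamp8), 1.08 (Vamp2), 1.04 (Rab27b), 1.01 (Stxbp2), 1 (Stx3) and 0.83 (Snap23) by the authors' deposited table, and 0 of these 6 passed. Over all genes with at least 10 mean reads, 14.8% passed. The part of acinar RNA in the higher mean of Rab3d, or in that of any other member, was not tested. Alpha cell markers had a summed level of 16287 and 10919, with 3 of 7 lower and 0 higher by the authors' deposited table. Most of this sum was Gcg, at 15132 and 10211, which did not pass (adjusted p = 0.0772 by the authors' deposited table). Beta cell markers had a summed level of 154445 and 182555, with 2 of 10 higher and 1 lower. Most of that sum was Ins2, at 93767 and 104185, which did not pass, and Ins1, at 38446 and 56190, which was higher. Of the other 6 lists, 1 delta and PP marker was lower and 1 macrophage and blood marker higher, while duct, endothelium, mesenchyme and glia markers had 0 calls. In whole islets, fewer cells of a type and less RNA per cell cannot be told apart.

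**Figure D3:**
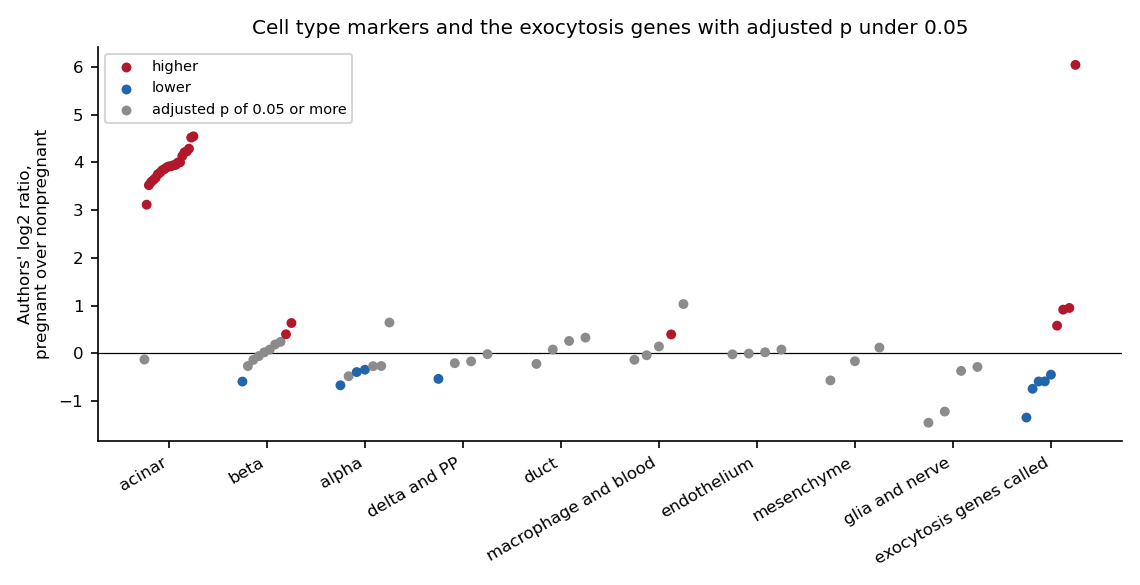
The authors' log2 ratio (y axis) of each marker gene of the cell type lists, 1 point per gene, and of the 9 members with an adjusted p under 0.05. The acinar markers other than Bhlha15 lie between 3.12 and 4.55, above Rab3d at 0.95, Rims3 at 0.92 and Sytl1 at 0.58. Syt10 is drawn at 6.04, from 0 mean reads in nonpregnant and 64 in pregnant islets. This value depends on the read added to each mean, and it was 2.89 with a pseudocount of 10.

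Rims3 encodes a short RIM, RIM3, which consists of little more than the C-terminal C2 domain of the full-length RIM scaffolds. The gene (ENSMUSG00000032890) spans 120854816 to 120896579 on chromosome 4 (plus strand). Its authors' mean rose from 20268 to 37370 reads, a ratio of 1.89 by the authors' deposited table (adjusted p = 3.67e-10). Rims2, the full-length RIM that binds Rab3 and calcium channels in beta cells, had authors' means of 3775 and 3734 reads, a ratio of 1.01 by the authors' deposited table (adjusted p = 0.994). Rims1 and Rims4 had at most 62 reads in either group. In level, Rims3 made up 87.1% of the RIM genes in nonpregnant and 92.6% in pregnant islets, and Rims2 12.4% and 7.1%. The summed level of the 4 RIM genes went from 34.6 to 57.8, nearly all of it Rims3.

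The Munc13 proteins open syntaxin and make docked granules ready to fuse. Unc13a (ENSMUSG00000034799, chromosome 8 at 71624417 to 71671757, minus strand), the gene of Munc13-1, fell from an authors' mean of 11208 to 7280 reads, a ratio of 0.67 by the authors' deposited table (adjusted p = 0.00191). Unc13b, its close paralog with an overlapping role, stood at 7842 and 8160 reads, with a ratio of 1.07 (adjusted p = 0.871) by the authors' deposited table. Unc13d, known from granule release in blood cells, went from 229 to 155 reads, a ratio of 0.7 with an unadjusted p of 0.011 and an adjusted p of 0.0788 by the authors' deposited table. Unc13c had an authors' mean of 2 reads in both groups. By level Unc13a remained the first Munc13 gene, with 69.3% of the summed level of the group in nonpregnant and 59.5% in pregnant islets. Unc13b took 26.9% and 37%. This order rests on annotated exon lengths of 12623 bases for Unc13a and 22746 for Unc13b. In reads, Unc13b stood above Unc13a in pregnant islets (8160 against 7280).

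**Figure D4:**
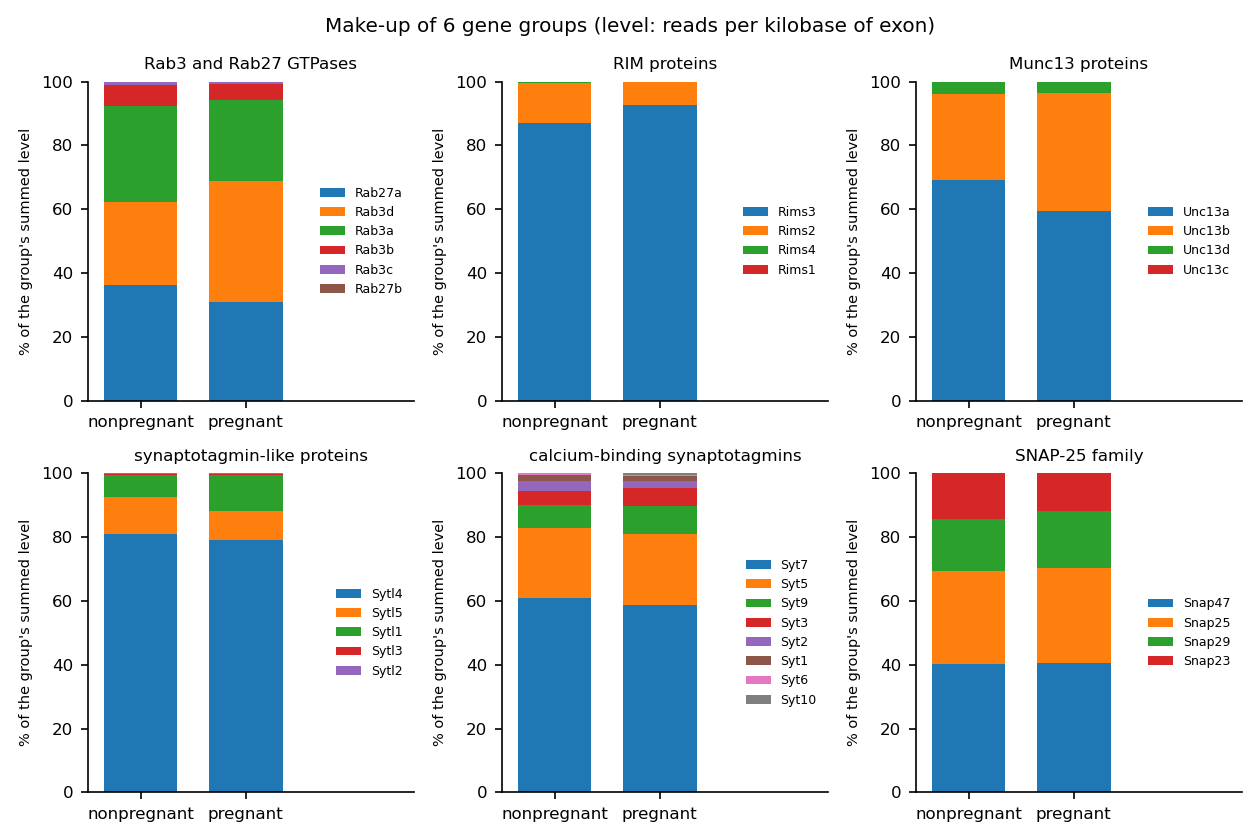
Make-up of 6 gene groups in nonpregnant and pregnant islets, as the percent of the summed level of the group (reads per kilobase of exon) that each gene takes, from 1 mean per group and so without error bars. Rab3d goes from 26.2% to 38% of the Rab3 and Rab27 genes, Rims3 from 87.1% to 92.6% of the RIM genes and Unc13a from 69.3% to 59.5% of the Munc13 genes, while the SNAP-25 family keeps Snap47 at 40.2% and 40.6%. The shares depend on annotated exon length, and the order by reads can differ. Examples are Snap47 and Snap25 in both groups, Unc13a and Unc13b in pregnant islets, and Rab3d and Rab3a in nonpregnant islets.

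The synaptotagmins with calcium-binding C2 domains included 1 higher and 1 lower gene of 8 by the authors' deposited table. Syt7, the high-affinity calcium sensor of insulin and glucagon release, had the highest level of these and authors' means of 29789 and 27098 reads, with a ratio of 0.93 by the authors' deposited table (adjusted p = 0.686). Syt2, a fast sensor of nerve terminals, fell from an authors' mean of 1577 to 1026 reads, a ratio of 0.67 by the authors' deposited table (adjusted p = 5.29e-05). Its close relative Syt1 went from 1032 to 811 reads, at a ratio of 0.81 with an unadjusted p of 0.0158 and an adjusted p of 0.102 by the authors' deposited table. Syt9, another sensor found in insulin-secreting cells, went the other way, from 1878 to 2188 reads (ratio 1.19, unadjusted p = 0.0255, adjusted p = 0.142 by the authors' deposited table). Syt5, the second most abundant of the 8 by level at 17.1 and 15.7, had a ratio of 0.98 by the authors' deposited table.

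Syt10 (ENSMUSG00000063260, chromosome 15 at 89782393 to 89841860, minus strand), a sensor described in neurons for the release of insulin-like growth factor 1, was listed at 0 mean reads in nonpregnant islets and at 64 mean reads in pregnant islets. The adjusted p by the authors' deposited table was 3.12e-19. No fold is given against a mean listed at 0, and the deposited log2 ratio of 6.04 contains an added read on each side. At 64 reads the pregnant level was 0.396, beside 0.28 for Syt6 and 41.3 for Syt7 in the same islets. Syt6, which belongs to the same subfamily as Syt10, went the opposite way without passing, from 220 to 143 reads (ratio 0.67, unadjusted p = 0.0086, adjusted p = 0.0661 by the authors' deposited table). Syt3, of that subfamily too, stood at 889 and 1049 reads with an adjusted p of 0.46 by the authors' deposited table.

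Of the 8 remaining synaptotagmins, whose C2 domains bind calcium poorly or not at all, 0 passed in either direction. Syt13 had authors' means of 107280 and 97431 reads, a ratio of 0.93 by the authors' deposited table (adjusted p = 0.672). Syt4, which accompanies dense-core granules and has been tied to beta cell maturation, had the second highest level of this group at 51.4 and 39.1. Its authors' mean went from 16913 to 13346 reads, a ratio of 0.81 by the authors' deposited table with an unadjusted p of 0.0102 and an adjusted p of 0.0748. The other 6 lay between ratios of 0.84 and 1.31 by the authors' deposited table.

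The synaptotagmin-like proteins (Slps) bind Rab27 on the granule. Of their 5 genes, 1 was higher and 2 were lower, beside 14.8% of all genes with at least 10 mean reads called in either direction. The Slps are 1 small group of 14, and the count was not tested. Sytl1, or Slp1, rose from an authors' mean of 1865 to 2721 reads, a ratio of 1.5 by the authors' deposited table (adjusted p = 0.00998). Sytl5, or Slp5, fell from 2819 to 2021 reads, at 0.73 by the authors' deposited table (adjusted p = 0.00153). Sytl2, or Slp2, known for glucagon granules of alpha cells, fell from 512 to 299 reads, at 0.6 by the authors' deposited table (adjusted p = 0.0035). Sytl4, the granuphilin gene and by far the most abundant Slp, had 44404 and 38614 reads and a ratio of 0.89 by the authors' deposited table (adjusted p = 0.604). By level Sytl4 took 81% and 78.9% of the group, while Sytl1 went from 6.92% to 11.3% and Sytl5 from 11.4% to 9.19%. Sytl1 was thus below Sytl5 in nonpregnant islets and above it in pregnant islets.

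Complexins bind the assembled SNARE bundle. Cplx2 made up 99.2% of the complexin level in nonpregnant and 99.6% in pregnant islets, with authors' means of 50568 and 55705 reads and a ratio of 1.13 by the authors' deposited table (adjusted p = 0.311). Cplx3, best known from ribbon synapses of the retina, fell from an authors' mean of 115 to 44 reads, a ratio of 0.39 by the authors' deposited table (adjusted p = 0.00564). Cplx1 stood at 91 and 59 reads without passing (ratio 0.67, adjusted p = 0.747 by the authors' deposited table), and Cplx4 had 1 read in both groups.

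**Figure D5:**
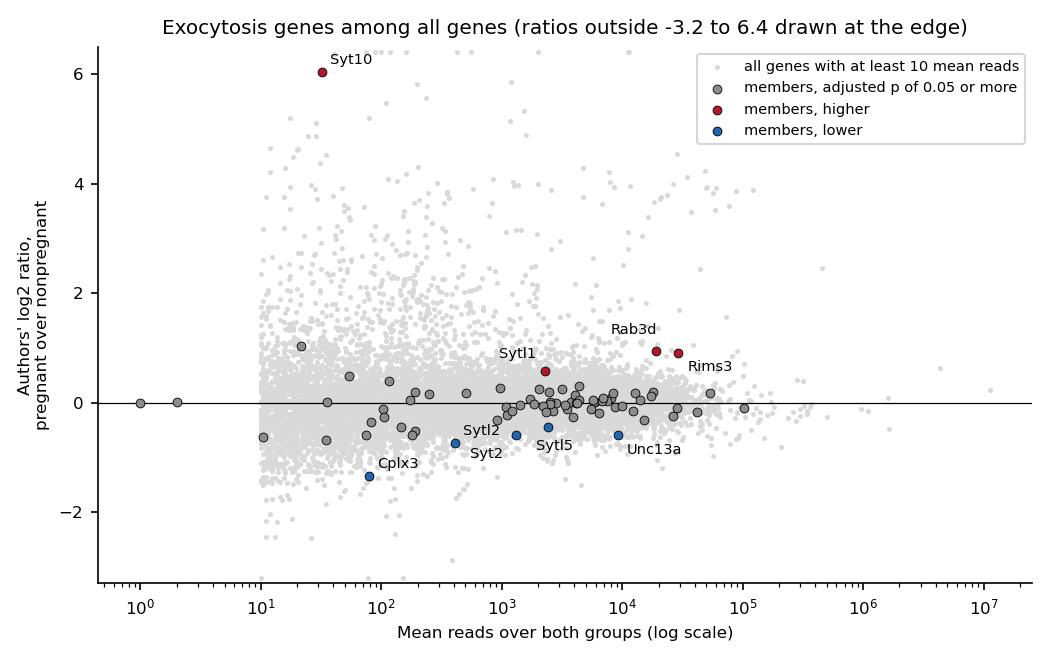
The authors' log2 ratio (y axis) against the mean reads over both groups (x axis, log scale), with all genes of at least 10 mean reads in light grey and the 77 members as outlined points. Rab3d and Rims3 stand above a band of equally abundant members near 0, whereas Cplx3, Sytl2 and Syt10 lie at low mean reads, where the ratios of all genes spread widely.

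The regions upstream of called genes are shown for both families with calls in opposite directions, the synaptotagmins (Syt10 higher, Syt2 lower) and the Slps (Sytl1 higher, Sytl5 lower), and for Rab3d, Rims3 and Unc13a, the abundant members called in their families. For 58 of the 77 members RefSeq promoter sequences of the build GRCm38.p6 were matched by symbol, 73 promoters in all. The 250 bases before each start are printed, read 5′ to 3′ along the gene, for Syt10 (chr15:89841861-89842110, minus strand), Syt2 (chr1:134646362-134646611 and chr1:134709050-134709299, plus strand), Sytl1 (chr4:133263088-133263337, minus strand), Sytl5 (chrX:9885371-9885620, plus strand), Rab3d (chr9:21918184-21918433, minus strand), Rims3 (chr4:120854549-120854798, plus strand) and Unc13a (chr8:71671758-71672007, minus strand). Syt2 has a promoter at each of its starts in that table. Capitals mark TGACG on either strand, the half-site of the cAMP response element.
Syt10: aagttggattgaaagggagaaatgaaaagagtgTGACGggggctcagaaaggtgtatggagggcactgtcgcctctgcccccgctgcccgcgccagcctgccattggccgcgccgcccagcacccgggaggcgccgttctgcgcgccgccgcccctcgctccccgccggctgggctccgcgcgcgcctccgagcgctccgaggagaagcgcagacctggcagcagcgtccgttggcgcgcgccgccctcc
Syt2, upstream start: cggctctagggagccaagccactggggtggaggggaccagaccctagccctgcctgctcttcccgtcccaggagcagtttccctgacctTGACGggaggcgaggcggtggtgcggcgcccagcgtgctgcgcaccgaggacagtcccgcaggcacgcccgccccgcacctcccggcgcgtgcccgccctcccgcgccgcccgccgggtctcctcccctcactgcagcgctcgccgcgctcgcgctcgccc
Syt2, downstream start: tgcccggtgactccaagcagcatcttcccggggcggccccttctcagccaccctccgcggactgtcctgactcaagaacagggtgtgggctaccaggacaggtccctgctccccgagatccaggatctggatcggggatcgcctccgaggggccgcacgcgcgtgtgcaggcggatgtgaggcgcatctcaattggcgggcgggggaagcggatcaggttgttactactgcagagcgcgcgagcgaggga
Sytl1: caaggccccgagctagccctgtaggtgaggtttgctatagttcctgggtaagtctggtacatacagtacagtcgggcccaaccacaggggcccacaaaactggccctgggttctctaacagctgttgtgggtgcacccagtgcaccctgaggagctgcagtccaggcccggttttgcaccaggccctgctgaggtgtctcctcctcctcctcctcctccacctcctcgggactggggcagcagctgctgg
Sytl5: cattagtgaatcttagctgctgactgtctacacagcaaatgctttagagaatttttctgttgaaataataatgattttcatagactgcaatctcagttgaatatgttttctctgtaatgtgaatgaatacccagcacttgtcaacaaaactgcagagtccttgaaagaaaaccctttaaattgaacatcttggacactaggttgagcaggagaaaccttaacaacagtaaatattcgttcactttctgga
Rab3d: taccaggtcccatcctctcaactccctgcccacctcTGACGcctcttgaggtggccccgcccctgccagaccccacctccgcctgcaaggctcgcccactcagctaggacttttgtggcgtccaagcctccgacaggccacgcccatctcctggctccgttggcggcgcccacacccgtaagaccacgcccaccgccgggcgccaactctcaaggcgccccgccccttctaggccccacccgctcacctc
Rims3: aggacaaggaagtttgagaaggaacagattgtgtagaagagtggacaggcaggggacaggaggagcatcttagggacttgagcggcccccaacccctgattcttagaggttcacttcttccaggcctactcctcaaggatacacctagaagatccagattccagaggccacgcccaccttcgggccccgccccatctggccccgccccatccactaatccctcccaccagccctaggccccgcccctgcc
Unc13a: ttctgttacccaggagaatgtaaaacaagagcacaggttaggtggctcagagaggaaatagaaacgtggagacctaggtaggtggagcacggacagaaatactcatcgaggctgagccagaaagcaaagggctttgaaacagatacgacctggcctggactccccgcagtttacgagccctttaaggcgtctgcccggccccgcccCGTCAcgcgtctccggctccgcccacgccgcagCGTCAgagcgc
TGACG was found on either strand in 17 of the 73 member promoters (23.3%) and in 17.8% of all 32851 promoters of the same length. It begins at position -217 from the start in Syt10 and -214 in Rab3d, both of which rose, and at -161 of the upstream start of Syt2 and in 2 places in Unc13a, both of which fell. The stretches of Rims3 and Sytl1, which rose, and of Sytl5 and Cplx3, which fell, have none, so genes with and without these letters went both ways. The element bound by STAT5, the factor downstream of the prolactin receptor, was searched as TTCNNNGAA on either strand. It was found in 4 member promoters (5.48%), those of Stx17, Sytl3, Sytl4 and Vamp8, against 7.02% of all promoters, and in none printed here. The Syt10 stretch (72% GC, 32 CpG) and that at the upstream start of Syt2 (76%, 30 CpG) are both GC-rich although the genes went in opposite directions, whereas Sytl1 has 61.6% with 4 CpG and Sytl5 35.2% with 1 CpG. The median was 60.8% with 14 CpG for member promoters and 52.4% with 6 CpG for all promoters.

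Other genes of the same release steps were taken from a list of 70, and 6 were higher and 4 lower by the authors' deposited table. They make up 14.3% of the list, beside 14.8% of all genes with at least 10 mean reads, which all 70 reached, so the list was called about as often as genes at large. Its median log2 ratio was -0.01. Rph3a, the gene of rabphilin, an effector of Rab3 and Rab27, rose from an authors' mean of 19 to 385 reads, a ratio of 19.8 by the authors' deposited table (adjusted p = 2.06e-63). The related Rab effector gene Rph3al (Noc2), needed for normal insulin release, went from 12009 to 14238 reads and did not pass, at a ratio of 1.22 (adjusted p = 0.0519 by the authors' deposited table). Among active zone scaffolds, Bsn (bassoon) rose 1.61-fold and Pclo (piccolo) fell to 0.78 by the authors' deposited table (adjusted p = 5.26e-09 and 0.0051). Syp (synaptophysin), a membrane protein of small vesicles, rose 1.33-fold, and Sv2b, a vesicle glycoprotein gene, 1.4-fold by the authors' deposited table (adjusted p = 0.00114 and 0.0205). Exoc7 of the exocyst, which tethers vesicles to the membrane, rose 1.38-fold, and Sec22a 1.55-fold by the authors' deposited table (adjusted p = 0.000308 and 0.00027). Doc2b and Doc2g, of the Doc2 family of C2 domain proteins, fell to 0.66 and 0.58 by the authors' deposited table (adjusted p = 0.00428 and 0.00774). Snph, the gene of syntaphilin, fell to 0.77 by the authors' deposited table (adjusted p = 0.00464). The disassembly factors Nsf and Napa, which recycle spent SNAREs, were at 1.06 and 0.94 by the authors' deposited table, and 0 of the 4 genes of that step passed. Of the 12 genes of SNAREs and their relatives outside the rule, which serve the ER, Golgi and endosomes, only Sec22a passed.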

How the data were processed

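RNA of mouse islets was sequenced after a TruSeq transcriptome preparation, per the labels' protocols, in 3 pregnant and 3 nonpregnant samples grouped by their labels. The submitters' processing notes name HTSeq 0.5.3p3, Bowtie, TopHat and TopHat2 2.0.12 and the build GRCm38. The deposited values are, per the file headers, a mean read count per gene and group, a linear fold ratio, its log2 and the authors' p-value with its adjusted form (FDR). Their test, the use of strand and any scaling before averaging are not given in the sources used here. The deposited log2 ratio lay 0.04 above that of the means (10102 genes), a factor of 1.02, and 1 read is added to each mean. Of 19940 genes, 21 stood on several lines and were counted once; 19265 matched GENCODE M21, as did all 77 members, 75 under the same symbol (Stxbp3a and Stxbp3b as Stxbp3 and Stxbp3-ps). Levels are means divided by annotated exon length and by the summed means, so their ratios are slightly lower than the deposited ones.

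Calls use the authors' adjusted p under 0.05 over all genes; no set test was run. The edgeR test foreseen for libraries could not be run on group means. The members and lists were chosen with earlier results of these data known. Named genes are all with an unadjusted p under 0.05, a fixed core set and the most abundant of each role. The values of 1 member that this rule names are not reported here, though it stays in the counts. Benjamini-Hochberg code was tested on simulated data. Python 3.11.15, pandas 2.3.3, numpy 2.4.6, scipy 1.17.1 and matplotlib 3.10.9 were used.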

Additional observations from a re-analysis of the deposited data

How the results depend on the processing

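The counts of 4 higher and 5 lower members held the same genes at an adjusted p under 0.01 and when p was adjusted over genes with at least 10 mean reads. At a threshold of 0.10 there were 4 higher and 9 lower members, with Snap23, Syt4, Syt6 and Unc13d added. Requiring 100 mean reads left 3 and 4, without Syt10 and Cplx3. The median log2 ratio of 0.00 was -0.09 scaled to total mean reads, -0.07 scaled without acinar genes and -0.04 with a pseudocount of 10 on the means. The median of all genes, -0.01, moved to -0.10, -0.08 and -0.05 with it. All 18 members with an unadjusted p under 0.05 kept their direction in these 3 settings, in 54 of 54 values. Syt10, at 6.04, was 2.89 with the pseudocount of 10. The medians of the SNAP-25 and VAMP groups, both 0.04, were -0.05 scaled to total reads. With this scaling the median of Stxbp4, Stxbp5, Stxbp5l and Stxbp6, 0.07, was -0.02. That of the Rab3 regulators and partners, 0.00, was -0.09. Leaving out single replicates was not run, since the file holds group means. No paired analysis was possible because the deposited columns are means per group and carry no replicate.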

Other observations

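The neighbours of the 9 called members were read from the annotation, taking the nearest gene on each side with at least 10 mean reads. Of these 18 genes, 3 (16.7%, beside 14.8% of all genes with that many reads) had an adjusted p under 0.05 by the authors' deposited table, and each went the same way as the member beside it. They are named after their values were seen. Dem1, which lies 24616 bp from Rims3, went from an authors' mean of 742 to 2119 reads (log2 ratio 1.55, adjusted p = 9.81e-16 by the authors' deposited table). Map3k6, 160 bp from Sytl1, went from 77 to 137 reads (adjusted p = 0.014), and Ppp1r12b, whose span overlaps Syt2, from 4657 to 3368 reads (adjusted p = 0.0248) by the authors' deposited table. The genes flanking Syt10, 190469 and 382450 bp away, did not pass. Vamp5 and Vamp8 lie 4754 bp apart on chromosome 6 and had ratios of 0.74 and 1.19 by the authors' deposited table, neither of which passed.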
